A study of Mus musculus with 17 samples.

Results

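The Zscan4 and Usp17l genes described here are 10 of the 49671 genes in the count table. They are Zscan4b, Zscan4c, Zscan4d, Zscan4e and Zscan4f and Usp17la, Usp17lb, Usp17lc, Usp17ld and Usp17le. By the GENCODE annotation all are protein-coding genes of mouse chromosome 7. They were chosen because they were nearly absent from libraries of Foxa2.pos cells, so their low level in those cells is a description and not a finding. The libraries came from R1 mouse embryonic stem cells carrying FOXA2-Venus, a reporter of FOXA2, the forkhead factor that marks the floor plate of the neural tube, in a study of floor plate formation in neural tube organoids. All cells had 18 hours of retinoic acid (RA). The BMP4 groups were then left untreated for 6 hours and given BMP4, a bone morphogenetic protein, for 8 hours, and the LDN groups were left for 6 hours and given an agent that the labels name LDN for 8 hours. The groups were BMP4 Foxa2.pos (3 libraries), BMP4 Foxa2.neg (3), LDN Foxa2.pos (2, numbered 2 and 3), LDN Foxa2.neg (3), RA Foxa2.pos (3) and RA Foxa2.neg (3). For RA the labels give the 18 hours alone, so the effect of BMP4 or LDN and that of a later harvest cannot be told apart. All cells are of 1 parental line. Whether replicate libraries were grown as separate cultures is not stated, so the p-values here reflect the spread among the libraries at hand, and that spread may be technical.

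Zscan4 genes encode nuclear proteins with a SCAN domain and zinc fingers. They are transcribed in the mouse 2-cell embryo, when the embryo's own genome is switched on, and in bursts in a small, changing minority of embryonic stem cells called 2-cell-like cells, where ZSCAN4 has been linked to telomere maintenance. In mouse, Zscan4d has been described as the main copy of the 2-cell embryo and Zscan4c as the main copy of embryonic stem cells. Usp17l genes encode ubiquitin-specific proteases of the DUB family, which remove ubiquitin from other proteins, and several are transcribed in the same 2-cell-like cells. The homeobox factor DUX, itself activated by DPPA2 and DPPA4, binds and activates Zscan4 promoters in that state.

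Promoters are shown because the 2 families share a pattern of expression but not a promoter sequence. RefSeq (GRCm38.p6, the assembly also called mm10) gave a promoter for 8 of the 10 genes, all but Zscan4e and Usp17le. Each run below is the 250 bases before the RefSeq start, 5′ to 3′ on the gene's strand, with matches on either strand in capitals to the TATA box TATAAA, the CCAAT box and the DUX motif, which is the longest run of capitals in each Zscan4 sequence. They lie at chr7:10905051-10905300 on the minus strand, chr7:11005495-11005744 on the plus strand and chr7:11166149-11166398 on the minus strand for Zscan4, and at chr7:104856766-104857015 on the plus strand and chr7:103252506-103252755 on the minus strand for Usp17l.
Zscan4b: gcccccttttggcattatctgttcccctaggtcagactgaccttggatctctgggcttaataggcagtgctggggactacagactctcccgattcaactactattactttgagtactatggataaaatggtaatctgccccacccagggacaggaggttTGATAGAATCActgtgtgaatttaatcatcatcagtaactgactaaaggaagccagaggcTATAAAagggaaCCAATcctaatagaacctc
Zscan4c: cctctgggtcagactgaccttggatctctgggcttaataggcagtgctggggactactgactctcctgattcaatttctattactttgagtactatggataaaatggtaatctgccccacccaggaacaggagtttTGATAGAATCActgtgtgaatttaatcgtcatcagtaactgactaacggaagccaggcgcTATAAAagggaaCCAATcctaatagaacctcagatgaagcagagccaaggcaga
Zscan4d: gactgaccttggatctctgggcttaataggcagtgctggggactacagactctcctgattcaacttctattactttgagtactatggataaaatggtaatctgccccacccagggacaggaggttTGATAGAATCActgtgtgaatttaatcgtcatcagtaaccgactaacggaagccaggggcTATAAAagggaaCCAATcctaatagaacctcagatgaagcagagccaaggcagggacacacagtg
Usp17la: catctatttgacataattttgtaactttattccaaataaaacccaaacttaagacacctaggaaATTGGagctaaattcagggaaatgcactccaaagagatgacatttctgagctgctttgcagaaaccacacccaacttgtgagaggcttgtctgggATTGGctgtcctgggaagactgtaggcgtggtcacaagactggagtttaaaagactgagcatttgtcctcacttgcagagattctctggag
Usp17ld: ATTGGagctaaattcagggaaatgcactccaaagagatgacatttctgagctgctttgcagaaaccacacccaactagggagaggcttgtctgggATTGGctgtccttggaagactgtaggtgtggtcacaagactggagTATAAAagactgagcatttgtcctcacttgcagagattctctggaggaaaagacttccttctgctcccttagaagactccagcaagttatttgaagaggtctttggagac

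All 4 Zscan4 promoters held 1 match to the DUX motif, against 0 of 4 Usp17l promoters and 58 of all 32851 promoters of that length (0.177%). The first base of the match lay 91 bases before the start in Zscan4b and Zscan4f, 114 in Zscan4c and 125 in Zscan4d. A TATA box followed downstream in each, 31 bases before the start in Zscan4b and 65 in Zscan4d, and then a CCAAT on the plus strand. TATAAA was found in 4 of 4 Zscan4 and 3 of 4 Usp17l promoters, all but that of Usp17la, against 12.4% of all promoters, and CCAAT in 4 of 4 and 4 of 4 against 33.8%. The letters TGCACAC, a core of the ZSCAN4 binding motif, and ATGCAAAT, the octamer bound by OCT factors, were in none of the 8 windows, against 3.67% and 1.6% of all promoters. Of the 44 other genes listed here for the 2-cell-like state, 15 had a promoter in the table and 0 of them held the DUX motif. Promoters were 73.6% to 94.8% identical within Zscan4 (6 pairs), 48.9% to 80.5% within Usp17l (6 pairs) and 46.3% to 53.4% between the families (16 pairs). A match is a description of the letters and says nothing of binding in these cells.

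Both families are arrays of copies, which bears on every count below. The 5 Zscan4 genes span 0.5016 Mb, from 10900740 to 11402318 on chromosome 7 (mm10), and the 5 Usp17l genes span 1.6129 Mb, from 103249737 to 104862667 on the same chromosome. Of the 25 other annotated genes inside the Zscan4 span, 2 averaged at least 1 CPM (counts scaled to library size by edgeR's TMM method, the unit of all levels here) in Foxa2.neg cells, and of the 117 inside the Usp17l span also 2, Trim12c and Trim6. Coding sequences were 96.4% to 99.7% identical among the Zscan4 copies (10 pairs; highest for Zscan4b with Zscan4e) and 78.6% to 98.4% among the Usp17l copies (10 pairs; highest for Usp17lc with Usp17ld). Of all 50-base stretches of transcript, 50.4% of those of Zscan4d occurred in no other gene, against 9.88% to 14.5% for the other 4 Zscan4 copies. For Usp17l the share ran from 48.9% in Usp17ld to 79.9% in Usp17la. How reads were split among copies is therefore uncertain, above all among Zscan4b, Zscan4c, Zscan4e and Zscan4f, and sums over each family are given beside the single genes.

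Libraries held 8435845 to 10796136 counts in genes. Foxa2 itself had 18.4 to 44.2 CPM in the 8 Foxa2.pos libraries and 0 to 2.93 CPM in the 9 Foxa2.neg libraries. The RA libraries numbered 1 stood apart by their mitochondrial share of counts, 7.434% and 6.945%, against 3.499% to 4.813% in the others, and counts of listed genes called in RA are also given without this pair. Among markers of pluripotent cells, Pou5f1, which encodes OCT4, had 6.5 to 15 CPM in Foxa2.pos and 39.9 to 79.5 CPM in Foxa2.neg libraries. Markers of fibroblasts, the feeder cells of stem cell culture, summed to 8.74 to 34.2 CPM in Foxa2.pos and 3.97 to 28.4 CPM in Foxa2.neg libraries over 7 genes, with 0 counts in every library for Dcn, Lum, Col3a1 and Postn.

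The 5 Zscan4 genes together had 24 counts in the 8 Foxa2.pos libraries, with 35 of 40 gene-by-library values at 0, and 12088 counts in the 9 Foxa2.neg libraries. In the BMP4 arm their sum was 0, 0.524 and 0 CPM in Foxa2.pos libraries 1, 2 and 3, and 109, 193 and 153 CPM in Foxa2.neg libraries 1, 2 and 3. In the LDN arm it was 0 CPM in both Foxa2.pos libraries, and 128, 22.9 and 8.14 CPM in Foxa2.neg libraries 1, 2 and 3. In the RA arm it was 0.111, 1.69 and 0 CPM in Foxa2.pos libraries 1, 2 and 3, and 207, 226 and 211 CPM in Foxa2.neg libraries 1, 2 and 3. The fractions did not overlap in any arm, and the RA Foxa2.neg libraries were alike while the LDN Foxa2.neg libraries spread from 1 high to 2 low values. Pooled over a group, the sum was 930-fold lower in Foxa2.pos than in Foxa2.neg cells of BMP4 (5 against 4350 counts) and 333-fold lower in RA (19 against 6197). In LDN, where Foxa2.pos libraries had no count, it was at least 323-fold lower (0 against 1541), taking 3 counts over the group as the floor, which is 0.159 CPM there. Such floors cover counting error only. In bulk RNA, fewer cells that express a gene and less RNA of it per cell cannot be told apart.

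Of the 24 Zscan4 counts in Foxa2.pos cells, 18 lay in RA library 2, which held 9 of Zscan4b, 7 of Zscan4e and 2 of Zscan4f. The other 6 were 5 of Zscan4d in BMP4 library 2 and 1 of Zscan4c in RA library 1. Each Zscan4 gene thus had counts in 1 of the 8 Foxa2.pos libraries. Zscan4d, the copy with the most sequence of its own, had 0, 0 and 0 CPM in the RA Foxa2.pos libraries and 59.0, 78.3 and 76.6 CPM in the RA Foxa2.neg libraries, at least 701-fold lower.

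The 5 Usp17l genes were low in Foxa2.pos cells, with 132 counts in the 8 libraries and 23 of 40 values at 0, and 4648 counts in the 9 Foxa2.neg libraries. In the BMP4 arm their sum was 1.13, 3.88 and 0.388 CPM in Foxa2.pos libraries 1, 2 and 3, and 27.3, 90.7 and 28.8 CPM in Foxa2.neg libraries 1, 2 and 3. In the LDN arm it was 0.189 and 0.241 CPM in Foxa2.pos libraries 2 and 3, and 32.8, 18.0 and 8.04 CPM in Foxa2.neg libraries 1, 2 and 3. In the RA arm it was 0.664, 6.29 and 0.205 CPM in Foxa2.pos libraries 1, 2 and 3, and 144, 106 and 25.3 CPM in Foxa2.neg libraries 1, 2 and 3. The sums did not overlap between fractions, and pooled counts were 27.9-fold lower in Foxa2.pos than in Foxa2.neg cells of BMP4 (53 against 1384), 91.1-fold lower in LDN (4 against 580) and 36.5-fold lower in RA (75 against 2684). Usp17le had counts in 7 of the 8 Foxa2.pos libraries, up to 2.93 CPM in BMP4 library 2, and Usp17lc in none of them. RA library 2 again held the most, 67 of the 132 counts, and 85 of the 156 counts of both families.

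**Figure D1:**
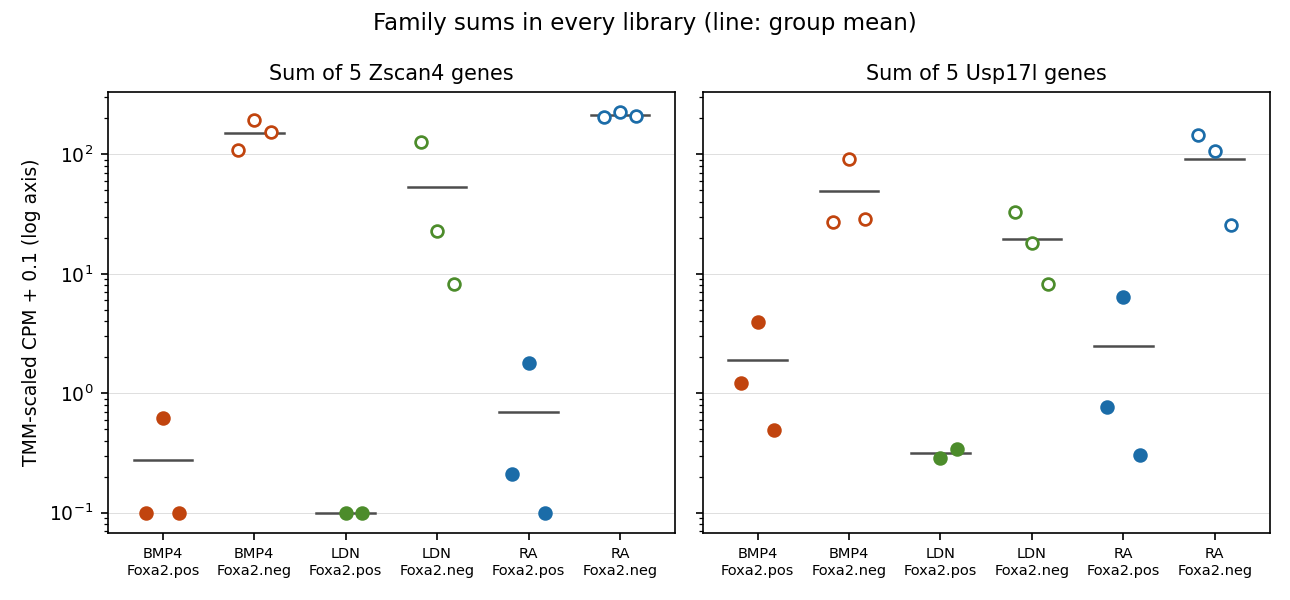
Summed level of the 5 Zscan4 genes (left) and the 5 Usp17l genes (right) in each library, as TMM-scaled CPM plus 0.1 on a log axis. Points are libraries in the order of their numbers, filled for Foxa2.pos and open for Foxa2.neg, and lines are group means; the Zscan4 sum is at most 1.69 CPM in Foxa2.pos and at least 8.14 CPM in Foxa2.neg libraries.

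Single genes kept the order of the fractions in most cases. In BMP4 all 10 genes were lower in every Foxa2.pos than in every Foxa2.neg library, as were 7.31% of the 17813 genes tested. In RA this held for 9 of 10, where 7.99% of tested genes did so, the exception being Usp17la, which had 0 counts in RA Foxa2.neg library 3 and 20 counts in RA Foxa2.pos library 2. In LDN it held for 7 of 10, where 14.7% of tested genes did so. There Zscan4f, Usp17lc and Usp17ld were at 0 in both Foxa2.pos libraries and also in Foxa2.neg library 3. Since the genes were chosen on this contrast, no more can be read from these counts.

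**Figure D2:**
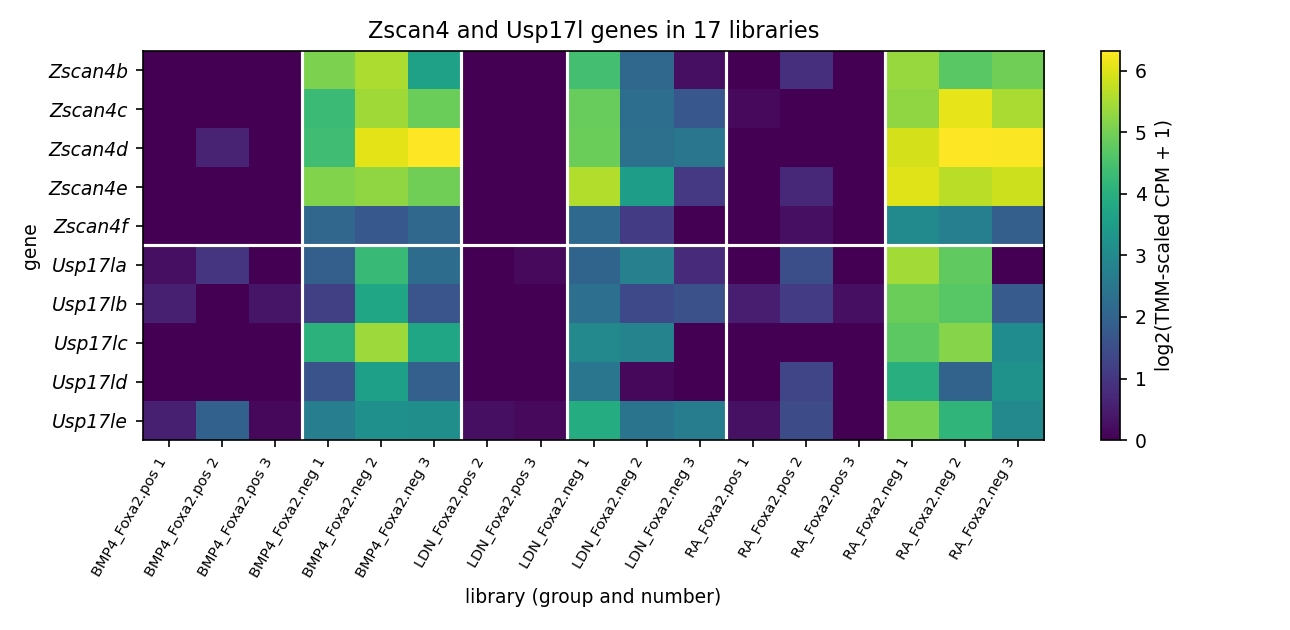
Level of each of the 10 genes (rows) in each of 17 libraries (columns, by group and number), as log2 of TMM-scaled CPM plus 1. Foxa2.pos columns are at or near 0 for both families, and within LDN Foxa2.neg the library numbered 1 is brighter than those numbered 2 and 3 for the Zscan4 genes.

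Where the families were expressed, their copies were not equal. Levels per kb of exon, averaged over the 9 Foxa2.neg libraries, were 20.4 ± 14.0 CPM per kb for Zscan4d and 20.4 ± 11.5 for Zscan4e, then 13.4 ± 9.04 for Zscan4c, 12.8 ± 8.72 for Zscan4b and 1.65 ± 1.08 for Zscan4f (SD, n = 9, across the 3 treatments). For the Usp17l genes they were 6.80 ± 5.79 CPM per kb for Usp17lc, 5.64 ± 6.89 for Usp17lb, 5.64 ± 4.44 for Usp17le, 4.32 ± 5.52 for Usp17la and 2.62 ± 2.58 for Usp17ld. Neighbours in either order differed by less than their SD, with the exception of Zscan4b and Zscan4f. By treatment, the highest Usp17l copy per kb was Usp17lc in BMP4 (9.41 CPM per kb), Usp17le in LDN (4.01) and Usp17lb in RA (12), each the mean of 3 libraries. The lowest Zscan4 copy per kb was Zscan4f, of whose 50-base stretches 13.2% occurred in no other gene, against 50.4% for Zscan4d. The part of shared reads in the level of Zscan4f, or in the order of the copies, was not tested. Within single Foxa2.neg libraries the top Zscan4 copy by counts was Zscan4d in 5 and Zscan4e in 4, with 17.8% to 56.6% and 13.3% to 45.8% of the family's counts. Zscan4c held 16.9% to 29.8% and never led. The top Usp17l copy was Usp17lc in 5 libraries, Usp17le in 2, and Usp17la and Usp17ld in 1 each. The share of Usp17le ran from 8.89% to 67.1%, and it was highest in LDN library 3, where Usp17lc and Usp17ld had no count.

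**Figure D3:**
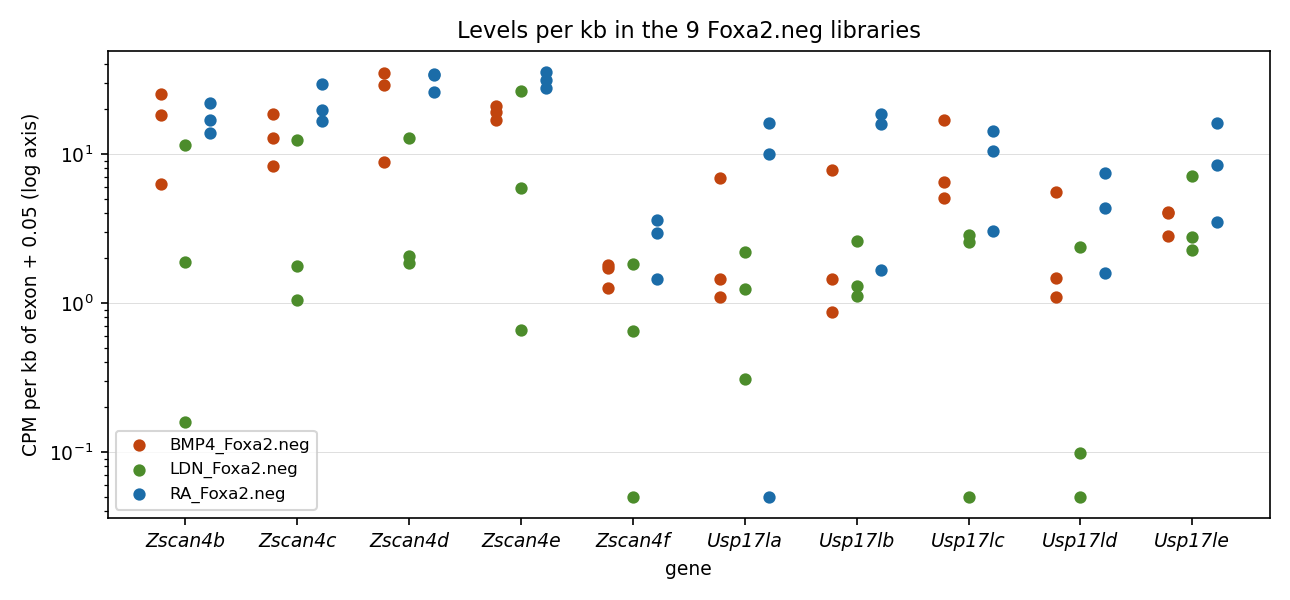
Level of each gene per kb of exon in the 9 Foxa2.neg libraries, as CPM per kb plus 0.05 on a log axis, with 1 point per library coloured by treatment. Zscan4f lies below the other Zscan4 genes in every library, and the lowest point is an LDN library for 8 of the 10 genes, all but Usp17la and Usp17lb.

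Whether treatment changed the families was asked within Foxa2.neg cells, a contrast that the choice of genes did not use. None of the 10 genes, all of which passed the filter on low counts, was called at an adjusted p under 0.05 by edgeR's quasi-likelihood test in any of the 3 comparisons. Few genes of any kind were called there, 0.0786% of those tested for BMP4 against RA, 0.0393% for LDN against RA and 0.196% for BMP4 against LDN. At an unadjusted p under 0.05, the genes counted were 0 of 10 for BMP4 against RA (7.36% of tested genes in either direction), 3 of 10 for LDN against RA (Zscan4c, Zscan4d and Usp17lb, lower, beside 4.0% of tested genes) and 2 of 10 for BMP4 against LDN (Zscan4d and Usp17lc, higher, beside 3.47%). DESeq2 also called none in each comparison. In a fit without the filter on low counts, edgeR called 5 of the 10 lower for LDN against RA (Zscan4b, Zscan4c, Zscan4d, Zscan4e and Usp17lc), beside 0.168% of all genes in that fit, and 3 higher for BMP4 against LDN (Zscan4b, Zscan4d and Usp17lc), beside 0.294%.

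After LDN the families stood lower than after RA in most libraries, and neither a family sum nor a single gene reached the threshold in the fit with the filter. The Zscan4 sum averaged 53.0 ± 65.4 CPM in LDN and 214 ± 10 CPM in RA (SD, n = 3 each), and the groups did not overlap. The fitted log2 difference was -2.02 ± 0.87 (SE, with a 95% interval of -3.93 to -0.10 and edgeR adjusted p = 0.647). Intervals here are not adjusted for the number of genes tested. LDN library 1, at 128 CPM, lay between the 2 low LDN libraries and RA, and without it the log2 difference was -3.79. The Usp17l sum averaged 19.6 ± 12.5 CPM in LDN and 91.6 ± 60.5 CPM in RA, with overlapping groups. Its log2 difference was -2.22 ± 0.99 (interval -4.39 to -0.06, edgeR adjusted p = 0.647). Singly, all 10 genes had negative log2 differences, with medians of -1.98 over the Zscan4 and -2.48 over the Usp17l genes, beside -0.016 over all genes tested. Zscan4d had 29.0, 4.08 and 4.61 CPM in LDN libraries 1, 2 and 3, and 59.0, 78.3 and 76.6 CPM in RA libraries 1, 2 and 3 (log2 difference -2.51 ± 0.82, edgeR adjusted p = 0.622). Usp17lb had 3.98, 1.65 and 1.96 CPM in LDN and 28.9, 24.7 and 2.53 CPM in RA (-2.88 ± 1.01, edgeR adjusted p = 0.608). The values of Zscan4b, Zscan4c, Zscan4d, Zscan4e and Usp17lc, 5 of 10, lay below RA in every LDN library, as did those of 6.27% of the genes tested. Without LDN library 1, 2 genes were called lower by edgeR, Zscan4c (adjusted p = 0.00157) and Zscan4d (adjusted p = 0.00904), while their adjusted p ran from 1.31e-09 (Zscan4d without the filter) up to 0.834 over the alternatives.

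BMP4 and RA were closer. The Zscan4 sum averaged 152 ± 42.3 CPM in BMP4 and 214 ± 10 CPM in RA (SD, n = 3 each), without overlap, and the log2 difference was -0.50 ± 0.84 (interval -2.34 to 1.34). That of Usp17l averaged 49.0 ± 36.2 CPM in BMP4 and 91.6 ± 60.5 CPM in RA, with overlap (-0.90 ± 0.94, interval -2.98 to 1.18). These intervals include both no difference and a change of several-fold. Zscan4e was the 1 gene whose libraries did not overlap, at 34.0, 37.4 and 30.1 CPM in BMP4 and 63.6, 49.5 and 56.1 CPM in RA (-0.74 ± 0.95, edgeR adjusted p = 0.947), beside 5.71% of tested genes that were lower in this way. Median log2 differences were -0.74 over the Zscan4 and -1.37 over the Usp17l genes, beside -0.013 over all genes.

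BMP4 cells stood above LDN cells in mean level of both families. The Zscan4 sum was 152 ± 42.3 CPM in BMP4 and 53.0 ± 65.4 CPM in LDN (SD, n = 3 each), with overlapping groups and a log2 difference of 1.52 ± 0.86 (interval -0.38 to 3.41), and the Usp17l sum was 49.0 ± 36.2 CPM in BMP4 and 19.6 ± 12.5 CPM in LDN (1.32 ± 0.96, interval -0.80 to 3.44). Without LDN library 1 the Zscan4 difference was 3.29, and Zscan4c (adjusted p = 0.00693) and Zscan4d (adjusted p = 0.0113) were called higher in BMP4 by edgeR, with an adjusted p of up to 0.922 and 0.85 over the alternatives. Usp17lc had 15.7, 41.4 and 12.2 CPM in BMP4 and 6.92, 6.12 and 0 CPM in LDN, the 1 gene without overlap, where 5.32% of tested genes were higher in this way (2.41 ± 1.09, edgeR adjusted p = 0.699). Without single libraries the log2 difference of the Usp17l sum ran from 0.52 to 1.91. The 3 comparisons share their groups and are not independent.

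Pooled over the 3 treatments, the families varied more between libraries of one treatment than most genes did. The SD of log2 CPM within Foxa2.neg groups had a median of 1.29 over the Zscan4 and 1.72 over the Usp17l genes, beside 0.553 over 12563 tested genes with a mean between 1 and 100 CPM. It ran from 0.834 for Usp17le to 2.72 for Usp17la, whose RA libraries held 407, 269 and 0 counts. The spread was uneven between treatments for the Zscan4 sum, at 214 ± 10 CPM in RA, 152 ± 42.3 CPM in BMP4 and 53.0 ± 65.4 CPM in LDN (SD, n = 3 each). The Zscan4 copies moved together from library to library, and the Usp17l copies did so about as much as genes of different families. Across the 9 Foxa2.neg libraries, which span 3 treatments, Pearson correlations of log2 CPM had a median of 0.908 within Zscan4 (0.772 to 0.967, 10 pairs). The median was 0.619 within Usp17l (0.294 to 0.851, 10 pairs) and 0.606 between the families (0.245 to 0.912, 25 pairs). Correlations of single copies were not computed within treatments, so differences between treatments enter them. Those within a family may also hold reads shared between copies, and this was not tested.

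The 2 sums correlated across the 9 Foxa2.neg libraries at Pearson r = 0.791 (exact permutation p = 0.0036) and Spearman rho = 0.70 (exact permutation p = 0.0433), both two-sided. Without the 2 libraries farthest from the median of the Zscan4 sum, LDN 2 and 3, r was 0.634 (exact permutation p = 0.143, n = 7). The relation at the threshold thus rests on those libraries, although leaving out the extremes also narrows the range and the number of libraries. With every copy of each family name summed, pseudogenes included, r was 0.814 (exact permutation p = 0.00281) and rho 0.883 (exact permutation p = 0.00308). For deviations from the treatment means r was 0.584 (exact permutation p = 0.0833), and without the LDN libraries, a choice made after seeing the data, it was 0.599 (exact permutation p = 0.242, n = 6). RA library 3 is where the families parted most, with 211 CPM of Zscan4, close to RA libraries 1 and 2, but 25.3 CPM of Usp17l. Without it r was 0.868.

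**Figure D4:**
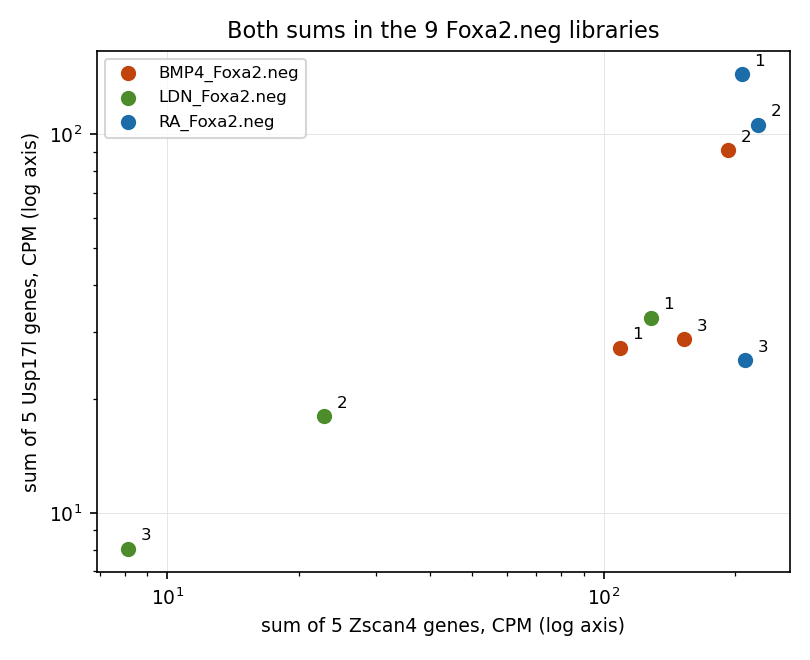
Summed CPM of the 5 Usp17l genes against that of the 5 Zscan4 genes in the 9 Foxa2.neg libraries, both on log axes, coloured by treatment and numbered by library. LDN libraries 2 and 3 are lowest on both axes, and RA library 3 has a Zscan4 sum of 211 CPM with a Usp17l sum of 25.3 CPM.

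Of 14566 genes outside both families with a mean of at least 1 CPM in Foxa2.neg cells, the 8 most like the Zscan4 sum over the 9 Foxa2.neg libraries were Myh13, which encodes a myosin heavy chain, Rmdn1, Gm28940, Gm45551, Tigar, which encodes a fructose bisphosphatase, Mgat4b, which encodes a glycosyltransferase of the Golgi, Npat, a coactivator of histone genes, and Sycp2, a protein of the synaptonemal complex, with Pearson r from 0.961 (Myh13) to 0.930 (Sycp2). Gm45551 is an unprocessed pseudogene within the span of the Zscan4-named genes. Likeness in Foxa2.neg cells did not extend to the fractions for all of them. Gm28940 and Gm45551 had 0 counts in every Foxa2.pos library and medians of 1.78 and 4.77 CPM in Foxa2.neg libraries, and Myh13 had a median of 0 CPM in Foxa2.pos and 3.14 CPM in Foxa2.neg libraries. Rmdn1, by contrast, had a median of 5.45 CPM in Foxa2.pos and 5.45 CPM in Foxa2.neg libraries, and Tigar 39.8 CPM in Foxa2.pos and 42.4 CPM in Foxa2.neg libraries. With 9 libraries from 3 treatments and this many genes ranked, these correlations are descriptions.

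Some other genes of the 2-cell-like state were also called lower in Foxa2.pos cells, in lists that are not independent evidence. Of 44 such genes, listed with results of these data known, 42 were in the table, 34 had a count in some library and 24 were tested, and 16 of the 24 had 0 counts in all 8 Foxa2.pos libraries. Those 16 passed the filter through Foxa2.neg libraries alone, so they could be called lower in Foxa2.pos cells and not higher, and the counts that follow are descriptions. The 42 genes in the table summed to 27.8 to 66.6 CPM in Foxa2.pos and 75.8 to 462 CPM in Foxa2.neg libraries, and most of the Foxa2.pos sum was Ddit4l (30.5 to 65.8 CPM in LDN Foxa2.pos, 60.2 to 81.1 CPM in LDN Foxa2.neg). The list and its sum include further copies of the chosen Zscan4 family. These were Zscan4a, Zscan4-ps1, Zscan4-ps2 and Zscan4-ps3, which averaged 62.0, 32.4, 9.87 and 39.5 CPM in RA Foxa2.neg cells. Against Foxa2.neg cells, Foxa2.pos cells were called lower for 4 of the 24 in BMP4 (0.601% of tested genes called lower), 2 in LDN (0.707%) and 5 in RA (0.82%). Of the 8 with a count in some Foxa2.pos library, 2 were called lower in each arm and 0 higher. In each arm 1 of these 2 was Zscan4-ps2, a copy of the family chosen on this contrast. The other was Arg2 in BMP4 and Gm8300 in LDN and RA. At an unadjusted p under 0.05 those lower were 18, 15 and 21 of the 24 in BMP4, LDN and RA, beside 5.86%, 6.49% and 5.97% of tested genes. The RA libraries of the 2 fractions were taken as paired by number. With that pairing as a block 9 of the 24 were called in RA (1.25% of tested genes called lower), the 5 and Zscan4a, Zscan4-ps1, Zscan4-ps3 and Gm12794. Without both RA libraries numbered 1 the count was 1 of 21 tested, Gm8300 (0.412% of tested genes), with 15 at an unadjusted p under 0.05. Leaving out any single library of the compared groups gave counts of 1 to 3 in BMP4, 0 to 1 in LDN and 4 to 5 in RA, while DESeq2 called 10, 6 and 15, beside 1.65%, 2.33% and 1.99% of its tested genes called lower.

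Called lower in all 3 arms or in 2 were Zscan4-ps2, Gm4340, Gm4027 and Gm8300, and in 1 arm Gm2016 (RA) and Arg2 (BMP4), which encodes the urea-forming enzyme arginase. Zscan4-ps2, annotated as protein coding under a pseudogene's symbol, was at least 76.2-fold lower in Foxa2.pos cells of BMP4 (0 against 214 counts; edgeR adjusted p = 0.00592) and at least 26.2-fold lower in LDN (0 against 125 counts; edgeR adjusted p = 0.0445). The LDN call was lost on leaving out any one of 4 libraries (LDN Foxa2.pos 2 or 3, LDN Foxa2.neg 1 or 2; edgeR adjusted p up to 0.282). Being a copy of the family chosen on this contrast, the gene is no independent evidence. In RA it had 1 count against 289, a ratio of 295 with a 95% counting interval of 52.5 to 11700 (edgeR adjusted p = 0.00697). Gm4340 averaged 0 CPM in BMP4 Foxa2.pos and 5.92 ± 3.43 CPM in BMP4 Foxa2.neg cells (SD, n = 3 each; at least 60.2-fold lower). Gm4340, Gm4027 and Gm2016 were among the 16 genes at 0 in every Foxa2.pos library. They could be called lower only, so their calls are descriptions. Gm8300 averaged 0.479 ± 0.830 CPM in RA Foxa2.pos and 27.4 ± 13.7 CPM in RA Foxa2.neg cells (SD, n = 3 each; log2 difference -5.85 ± 1.18, edgeR adjusted p = 0.0117). Arg2 averaged 0.453 ± 0.349 CPM in BMP4 Foxa2.pos and 7.95 ± 2.73 CPM in BMP4 Foxa2.neg cells (SD, n = 3 each; log2 difference -4.09 ± 0.99, edgeR adjusted p = 0.0396), a call lost whichever of the 6 libraries was left out (edgeR adjusted p 0.0505 to 0.184). Calls of Gm4340 and Gm4027 in BMP4, Gm8300 in LDN and Gm2016 in RA were also lost without some single libraries (edgeR adjusted p up to 0.0734, 0.122, 0.336 and 0.0725). Zscan4a had 0 counts in all 8 Foxa2.pos libraries and averaged 49.1 ± 24.9 CPM in BMP4, 16.0 ± 26.3 CPM in LDN and 62.0 ± 8.30 CPM in RA Foxa2.neg cells (SD, n = 3 each). In LDN its Foxa2.neg libraries ran from 0 to 46.3 CPM, so the wide spread of the Zscan4 genes there was seen in this copy too. Whether the difference between fractions itself differed between arms could not be estimated for the 16 genes at 0 in every Foxa2.pos library.

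Among 18 tested regulators of the state, 1 was called, lower in Foxa2.pos cells of RA and BMP4 (0.82% and 0.601% of tested genes called lower). This was Dppa2, an activator of Dux and Zscan4 in mouse embryonic stem cells. It averaged 9.79 ± 3.45 CPM in RA Foxa2.pos and 48.8 ± 4.74 CPM in RA Foxa2.neg cells (SD, n = 3 each; log2 difference -2.31 ± 0.42, edgeR adjusted p = 0.00337). In BMP4 it averaged 15.9 ± 9.21 CPM in Foxa2.pos and 51.3 ± 24.9 CPM in Foxa2.neg cells (-1.69 ± 0.41, edgeR adjusted p = 0.0396), a call lost under the replicate block, in a fit of the compared groups alone, without Foxa2.neg library 2 and without any one of the Foxa2.pos libraries (edgeR adjusted p up to 0.327 over the alternatives). In LDN it averaged 12.3 ± 5.60 CPM in Foxa2.pos (n = 2) and 26.2 ± 5.62 CPM in Foxa2.neg cells (n = 3; -1.09 ± 0.47, edgeR adjusted p = 0.37). Its partner Dppa4 averaged 45.5 ± 11.5 CPM in RA Foxa2.pos and 80.8 ± 13.0 CPM in RA Foxa2.neg cells (n = 3 each; -0.83 ± 0.25, edgeR adjusted p = 0.119), and with RA libraries paired by number it was called (edgeR adjusted p = 0.0217). With the block within treatment Lin28a was called higher in LDN Foxa2.pos cells (log2 difference 0.60, edgeR adjusted p = 0.0231), where numbers were not taken to pair the libraries. Without both RA libraries numbered 1, Dppa2 was again the 1 regulator called in RA. Repressors of the state, among them Kdm1a, Trim28, Setdb1, Ehmt2 and the chromatin assembly genes Chaf1a and Chaf1b, were not called in any arm in the fit without a block. Duxf3 and Duxbl1 had 0 counts in all 17 libraries, which allows up to 0.159 CPM in the group with the fewest counts. That bound covers counting error only, and reads that fit several places may be missing from the counts.

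Within Foxa2.neg cells, levels of pluripotency genes and of Dppa2 can be set beside the Zscan4 sum library by library. BMP4 libraries 1, 2 and 3 had 109, 193 and 153 CPM of Zscan4 with 39.9, 62.5 and 54.2 CPM of Pou5f1 and 36.3, 80.1 and 37.6 CPM of Dppa2. LDN libraries 1, 2 and 3 had 128, 22.9 and 8.14 CPM of Zscan4 with 58.6, 54.1 and 79.5 CPM of Pou5f1 and 32.6, 22.2 and 23.6 CPM of Dppa2. RA libraries 1, 2 and 3 had 207, 226 and 211 CPM of Zscan4 with 47.7, 74.1 and 55.3 CPM of Pou5f1 and 43.4, 51.3 and 51.8 CPM of Dppa2. The library with the least Zscan4 thus had the most Pou5f1, and Dppa2 in LDN lay below RA without overlap (log2 difference -0.90 ± 0.40, edgeR adjusted p = 0.647). Of 6 genes set against the Zscan4 sum over the 9 Foxa2.neg libraries (Pou5f1, Nanog, Zfp42, Dppa3, Dppa2 and Dppa4), Dppa2 was the 1 whose correlation passed an adjusted p of 0.05. Its Pearson r was 0.803 (exact permutation p = 0.00454, adjusted p = 0.0272) and its Spearman rho 0.85 (exact permutation p = 0.00607, adjusted p = 0.0364). Without the 2 farthest libraries, LDN 2 and 3, r was 0.667 (exact permutation p = 0.0927), so that relation also rests on them, and for deviations from treatment means it was 0.501 (exact permutation p = 0.12). Pou5f1 had r = -0.345 over all 9 (exact permutation p = 0.362) and 0.608 without those 2 (exact permutation p = 0.153). Nanog had r = 0.523 (exact permutation p = 0.18) and Zfp42 r = 0.351 (exact permutation p = 0.348), which was 0.838 without the 2 (exact permutation p = 0.0234, not adjusted). Rank correlations of Pou5f1, Nanog and Zfp42 were 0.0833, 0.583 and 0.65 (exact permutation p = 0.843, 0.108 and 0.0666).

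Between fractions Pou5f1, Nanog, Zfp42, Utf1 and Dppa5a, 5 of the 9 pluripotency markers, were called lower in Foxa2.pos cells of every arm. Of all tested genes, 0.601%, 0.707% and 0.82% were called lower in BMP4, LDN and RA. Nanog's call was lost in each arm without some libraries (edgeR adjusted p up to 0.0793 in BMP4, 0.088 in LDN and 0.0858 in RA), and without both RA libraries numbered 1 the other 4 were called in RA. Log2 differences were negative for 7, 8 and 8 of the 9 markers in BMP4, LDN and RA. Sox2 was slightly higher in Foxa2.pos cells (log2 difference 0.17 in BMP4 and 0.089 in RA, mean 118 against 99.8 CPM in LDN). Klf4 was higher in BMP4 alone (log2 difference 1.06). Neither was called. Summed over the 9 markers, the level was 390 to 511 CPM in Foxa2.pos and 657 to 1180 CPM in Foxa2.neg libraries. Dppa5a was the largest part, with group means of 279 to 308 CPM in Foxa2.pos and 507 to 616 CPM in Foxa2.neg cells. Germ cell markers summed to 20.2 to 54.8 CPM in Foxa2.pos and 45.9 to 96.2 CPM in Foxa2.neg libraries over 7 genes, with 0 of 7 called in each arm, also without both RA libraries numbered 1. At an unadjusted p under 0.05 those lower were 2, 2 and 3 in BMP4, LDN and RA, beside 5.86%, 6.49% and 5.97% of tested genes. In RA 1 was higher, Prdm1 (log2 difference 2.83 ± 0.87, edgeR adjusted p = 0.142). Beyond the correlations in Foxa2.neg cells, the part of pluripotent cells in the level of the Zscan4 and Usp17l genes between fractions was not tested.

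**Figure D5:**
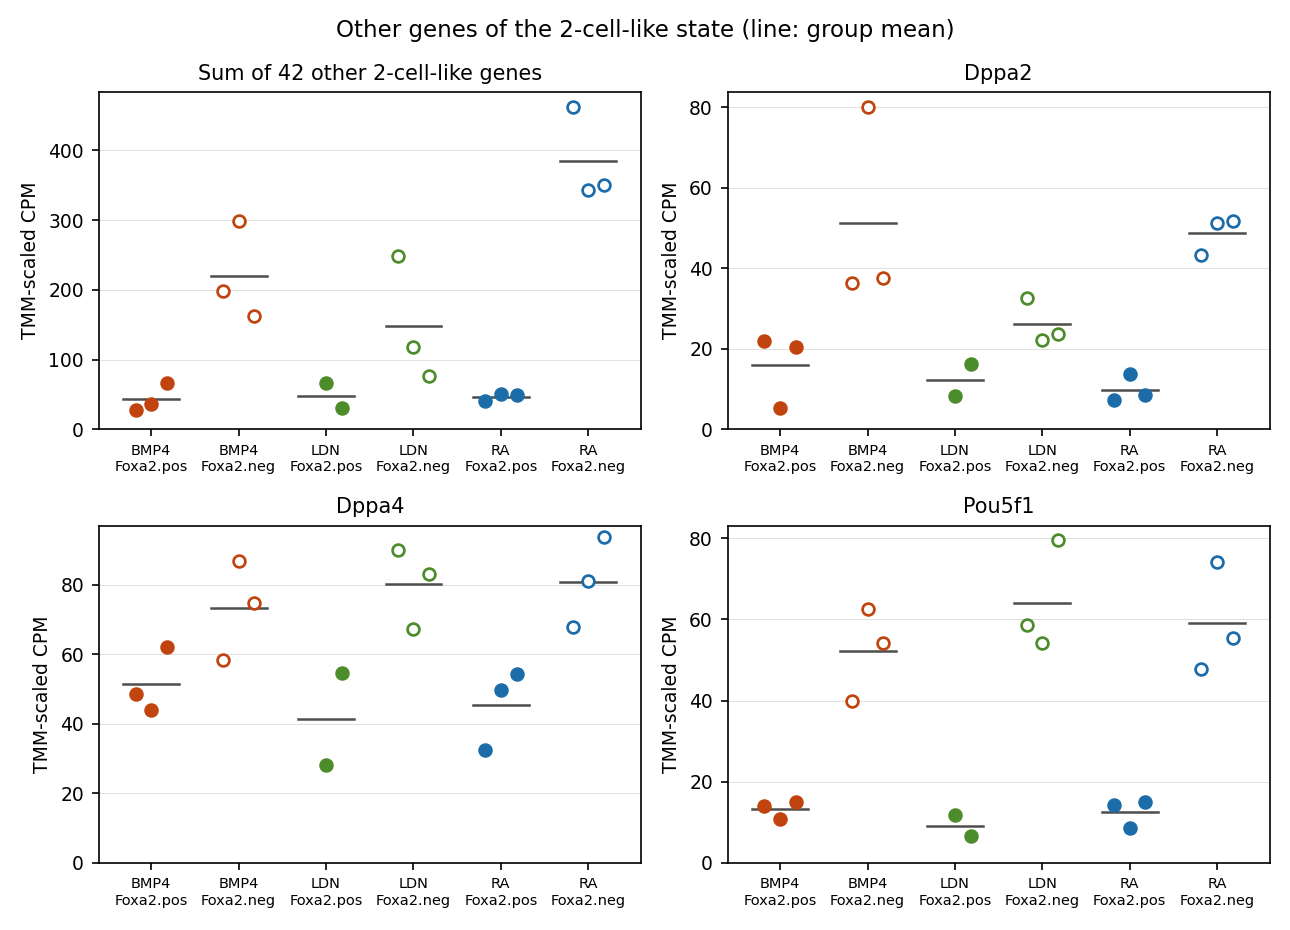
Levels in each library of the summed 42 other 2-cell-like genes (further Zscan4 copies among them), Dppa2, Dppa4 and Pou5f1, in TMM-scaled CPM. Points are libraries in the order of their numbers, filled for Foxa2.pos and open for Foxa2.neg, and lines are group means. In each arm the 2-cell-like sum is lower in every Foxa2.pos than in every Foxa2.neg library, and LDN Foxa2.neg library 3 is lowest of the Foxa2.neg libraries for that sum and highest for Pou5f1.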

How the data were processed

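The authors deposited, for each of 17 libraries, a table of whole-number counts per Ensembl gene. Per the submitters' processing notes, which give no order, the tools were HTSeq 0.11.2, UMI-tools 1.0.0, DESeq2 1.26.0 and cutadapt 1.18, on mm10. Not given in the sources used here are the aligner, annotation release, strand setting and treatment of reads that fit several places. The 5 summary lines of each table, which name no gene, held 49.32% to 54.41% of its total and were left out. Among these lines, that for alignments that were not unique held 16.0% to 21.5% of the total. Libraries were grouped by their labels.

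From the counts, CPM were computed with TMM scaling. Genes passing edgeR's filterByExpr (minimum count 10, minimum total 15) numbered 17813. One quasi-likelihood model over all 6 groups (edgeR 4.0.16, limma 3.58.1, R 4.3.3) gave log2 differences, SE and Benjamini-Hochberg adjusted p over all tested genes. It had 11 residual degrees of freedom. A prior count of 2 entered the log2 CPM used for spread and correlations, and not the fitted log2 differences. Family sums entered the model in place of their genes. The model was also run on simulated counts, and the outcome of that run is not used here. Permutation tests used Python 3.11.15 and scipy 1.17.1, sequence identity Biopython 1.88 and plots matplotlib 3.10.9.

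Alternatives were RLE scaling, no filter, a filter of 5 CPM in 2 libraries, a replicate block, the compared groups alone, DESeq2 1.42.0 and leaving out libraries. For the correlation of the sums a prior count of 0.5 was also used. Library numbers were taken to pair fractions where all same-number correlations of deviations over 6669 genes exceeded 0.1. They did in RA (0.587, 0.238 and 0.277), although libraries 2 and 3 also correlated across numbers (0.243 and 0.168), and not in BMP4 (0.051 to 0.079) or LDN (0.057 and 0.062), nor across treatments. Correlations across numbers were lower still in BMP4 (-0.061 to -0.011) and LDN (-0.062 to 0.005). The cut therefore does not show that pairing is absent there.

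The 10 genes and all gene lists were chosen with earlier results of these data known. All 10 are described, along with the 8 genes most correlated with the Zscan4 sum and the listed genes that were called. A few more listed genes (Zscan4a, Ddit4l, Dppa4 and repressors) were named after their values were seen.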

Additional observations from a re-analysis of the deposited data

How the results depend on the processing

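Without the filter on low counts, the log2 differences of the Zscan4 and Usp17l sums were -2.01 and -2.22 for LDN against RA and 1.53 and 1.33 for BMP4 against LDN, close to those above but with smaller SE, so that these sums passed the threshold there, and 5 and 3 of the 10 genes were called. The cause was not tested. Leaving out single libraries gave 0 to 2 genes called in each of these comparisons. With the replicate block, log2 differences of the sums were -0.47 and -0.79 for BMP4 against RA, -2.40 and -2.08 for LDN against RA and 1.93 and 1.29 for BMP4 against LDN, and 0 of the 10 genes were called in each. Since numbers were not taken to pair these libraries, the block carries little meaning here.

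Some single genes changed direction when a library was left out. For BMP4 against RA, Zscan4b ran from -0.52 to 0.31 (0.11 without both RA libraries numbered 1), Zscan4d from -0.73 to 0.03 and Usp17lc from -0.70 to 0.49. For BMP4 against LDN, Usp17lb ran from -0.55 to 1.52 and Usp17le from -0.45 to 0.55. The correlation of the sums was 0.635 to 0.868 without single libraries, 0.634 without the 2 farthest, 0.584 within treatments and 0.599 without the LDN libraries.

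Of the other 2-cell-like genes, those called lower in RA were 15 without the filter, 9 with the replicate block within treatment, 1 without both libraries numbered 1, 11 with the compared groups alone and 15 by DESeq2. In BMP4 they were 11 without the filter, 7 with that block, 10 by DESeq2 and 1 to 3 without single libraries. In LDN they were 7 without the filter, 1 with RLE scaling, 1 with the block over all treatments, 0 with the compared groups alone, 6 by DESeq2 and 0 to 1 without single libraries. The causes were not tested. Low counts in Foxa2.pos cells limit every fold given there.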
